A study of Bos taurus with 6 samples.

Results

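The VEGF, angiopoietin and endothelin genes were followed in bovine granulosa cells, which surround the oocyte, line the follicle wall and make oestradiol. They comprise the ligands VEGFA, VEGFB, VEGFC, PGF, ANGPT1, ANGPT2, EDN1 and EDN2 and the endothelin receptors EDNRA and EDNRB. Members were all array probes that carry one of these 10 symbols in the platform annotation, or a synonym of it. These 10 genes, of 15216 named genes on the array, had 13 of its 43794 gene probes: 3 for EDNRA, 2 for VEGFA and 1 for each of the other genes. Cells came from multiparous Holstein cows whose ovaries had been stimulated with gonadotropins, and were aspirated in vivo from coasted pre-ovulatory follicles 68 hours after the last injection of FSH. These features were shared by both groups: 3 cows that also received cetrotide and 3 control cows. Cetrotide is a brand of cetrorelix, which blocks the pituitary receptor for gonadotropin releasing hormone and so lowers luteinizing hormone (LH). Each of 6 arrays carried cetrotide RNA and control RNA, in opposite dyes on the 2 slides, and the 2 arrays with the same area number were averaged to 1 of 3 replicates. The labels used here state neither the dose and timing of cetrotide nor whether RNA of several animals was pooled.

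VEGF family ligands act on receptors of endothelial cells and drive vessel growth and leakiness, with VEGFC better known for lymphatic vessels and PGF for its receptor FLT1. ANGPT1 activates the endothelial receptor TEK and steadies vessels, while ANGPT2 mostly opposes it and loosens them. The endothelins are small peptides that constrict smooth muscle through EDNRA, whereas EDNRB also relays relaxing and clearing actions. In the follicle the granulosa layer holds no vessels until ovulation, when the LH surge opens it to vessels from the theca; in rodents EDN2 of granulosa cells appears briefly just before the follicle ruptures.

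Of the 13 probes, 11 were kept, which required that the same RNA exceed a limit, set at the 95th percentile of negative spots in its array and channel, on at least 4 of 6 arrays. These 11 probes stood for 9 genes. EDNRB was above that limit on 0 of 6 arrays for either RNA, and the third EDNRA probe on 0 arrays for cetrotide RNA and 1 for control RNA, so no fold is given for them. No member probe passed the test across all probes: limma on the 3 replicates called 0 of 11 higher and 0 of 11 lower at an adjusted p under 0.05, where the background over 31769 kept probes was 0% higher and 0% lower. The count at an unadjusted p under 0.05 was 1 member probe higher, EDN1, and 0 lower, against a background of 7.84% and 6.58% of kept probes. With 3 replicates an exact sign-flip test of a single probe cannot give a two-sided p below 0.25.

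The largest differences lay in replicate 3. In that replicate 4 of 11 kept member probes, for VEGFC, PGF, ANGPT2 and EDNRA, were at least 2-fold lower in cetrotide RNA on both arrays, where the background was 3.35% of kept probes. EDN2 was the 1 member at least 2-fold higher there, against 5.21% of kept probes. In replicate 2 the brighter VEGFA probe was the 1 member at least 2-fold higher on both arrays (background 1.74%), and none was at least 2-fold lower (0.264%). In replicate 1 no member reached 2-fold on both arrays in either direction, where the background was 2.41% higher and 1.48% lower. Medians over the 11 kept member probes were -0.01, 0.22 and -0.64 in replicates 1, 2 and 3 on the log2 scale of cetrotide over control, beside -0.01, -0.02 and 0.01 over all kept probes.

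**Figure D1:**
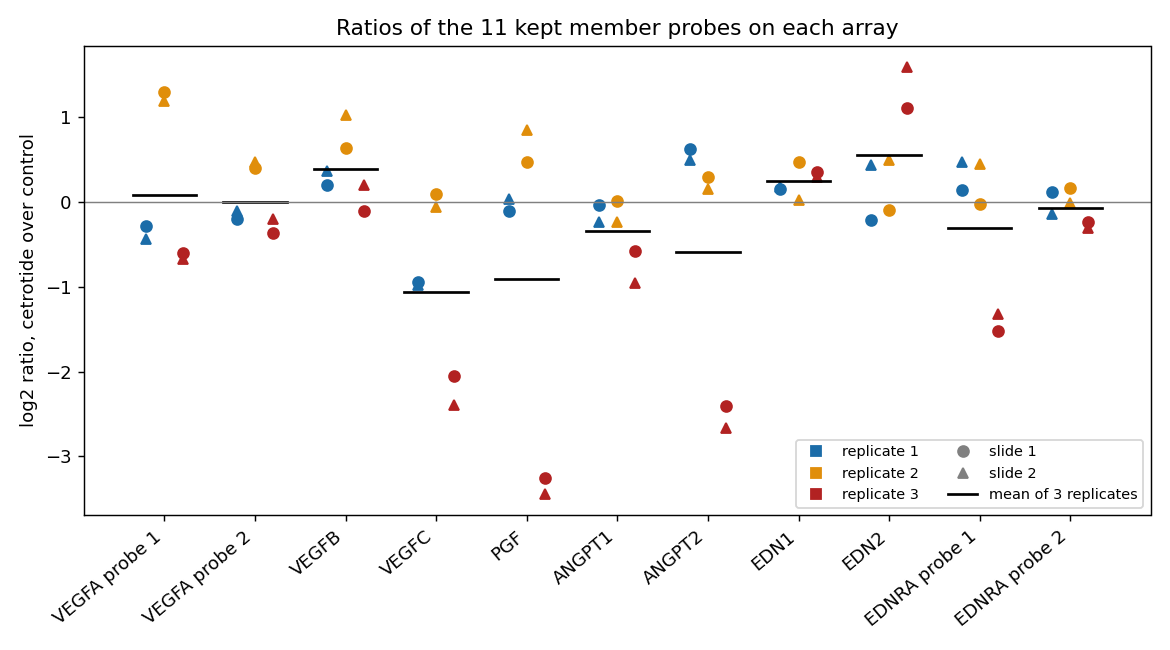
Log2 ratio of cetrotide over control (vertical axis) of the 11 kept member probes on each of 6 arrays, with colour for the replicate, circles for slide 1, triangles for slide 2 and a black bar for the mean of 3 replicates. Replicate 3 lies at -3.34 for PGF, -2.53 for ANGPT2 and -2.23 for VEGFC, apart from the other replicates, and for these 3 genes the 2 arrays of a replicate differ by at most 0.39; for EDN2 they differ by up to 0.65.

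Among the VEGF ligands, PGF (placental growth factor, a ligand of FLT1) differed most between replicates. Its log2 ratios on slide 1 were -0.10, 0.46 and -3.25 for areas 1, 2 and 3, and on slide 2 they were 0.03, 0.85 and -3.44. Both arrays of area 3 stood far below the others, so that the mean of -0.91 ± 2.14 (SD, n = 3) described none of the replicates (95% interval -3.74 to 1.92, adjusted p = 0.743 with limma). As a fold, PGF was 10.2-fold lower in cetrotide RNA in replicate 3 and 1.58-fold higher in replicate 2. The log2 channel levels, which are intensities after loess and Aquantile normalization, give the 2 RNAs apart. Control RNA had 10.61, 11.44 and 11.10 in replicates 1, 2 and 3, and cetrotide RNA 10.58, 12.10 and 7.75. The cetrotide RNA of replicate 3 was thus 2.83 below the lowest of the other 5 RNAs, a gap wider than the range of 0.83 among the control RNAs.

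VEGFC, the lymphatic growth factor, was the member with the lowest mean, at a log2 ratio of -1.06 ± 1.12 (SD, n = 3). Its ratios were -0.95, 0.10 and -2.06 on slide 1 and -0.98, -0.06 and -2.39 on slide 2. It was therefore lower in cetrotide RNA in replicates 1 and 3, by 1.95-fold and 4.68-fold, and near equal in replicate 2. Its 95% interval ran from -2.55 to 0.44 and its adjusted p was 0.473 with limma. In control RNA the log2 channel levels of VEGFC were 9.94, 9.70 and 10.30, and in cetrotide RNA 8.98, 9.72 and 8.07. The cetrotide RNAs of replicates 1 and 3 lay below all control RNAs, while that of replicate 2 lay within the control range.

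VEGFA, the main VEGF of vessel growth, showed no common direction on either probe. The brighter probe had log2 ratios of -0.29, 1.29 and -0.61 on slide 1 and -0.43, 1.19 and -0.67 on slide 2. It was 2.36-fold higher in cetrotide RNA in replicate 2 and 1.56-fold lower in replicate 3, with a mean of 0.08 ± 1.02 (SD, n = 3; 95% interval -1.27 to 1.43; adjusted p = 0.960 with limma). The other VEGFA probe was dimmer, with a mean log2 intensity of 7.15 against 8.13, and had the same signs at -0.15, 0.44 and -0.29 in the 3 replicates. Both VEGFA probes were above the background limit for both RNAs on all 6 arrays. Control RNA had log2 channel levels of 8.05, 7.97 and 8.24 on the brighter probe, and cetrotide RNA 7.69, 9.22 and 7.60, so the cetrotide levels fell on both sides of the control range.

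VEGFB, a VEGF ligand of FLT1 with little effect on vessel sprouting, was above 0 on 5 of 6 arrays. The ratios were 0.20, 0.64 and -0.11 on slide 1 and 0.37, 1.02 and 0.20 on slide 2. The mean was 0.39 ± 0.40 (SD, n = 3), with a 95% interval from -0.17 to 0.95 and an adjusted p of 0.482 with limma. Replicate 2 gave the highest value, 1.78-fold, as it did for VEGFA and PGF. Levels of VEGFB in cetrotide RNA were 10.47, 10.99 and 9.56 and those in control RNA 10.19, 10.16 and 9.51, with the lowest of each group in replicate 3.

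ANGPT2, the angiopoietin that destabilises vessels, split the replicates by sign. Its log2 ratios on slide 1 were 0.62, 0.29 and -2.40, and those on slide 2 were 0.49, 0.16 and -2.67. It was 1.47-fold and 1.17-fold higher in cetrotide RNA in replicates 1 and 2 and 5.79-fold lower in replicate 3. The mean of -0.59 ± 1.70 (SD, n = 3) had a 95% interval from -2.83 to 1.66 and an adjusted p of 0.793 with limma. Without replicate 3 it was 0.39 (adjusted p = 0.310 with limma), so that 1 replicate set the sign. Control RNA had log2 channel levels of 13.09, 12.52 and 13.48, and cetrotide RNA 13.64, 12.74 and 10.95, and the last of these was 1.57 below the lowest of the other 5 RNAs.

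ANGPT1, the activating ligand of TEK, was dimmer and was lower in cetrotide RNA on 5 of 6 arrays. Its ratios were -0.04, 0.01 and -0.58 on slide 1 and -0.24, -0.23 and -0.96 on slide 2. The mean was -0.34 ± 0.37 (SD, n = 3; 95% interval -0.86 to 0.18; adjusted p = 0.505 with limma). Replicate 3 was again the lowest, 1.71-fold lower with cetrotide, while replicates 1 and 2 differed by 1.10-fold and 1.08-fold.

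**Figure D2:**
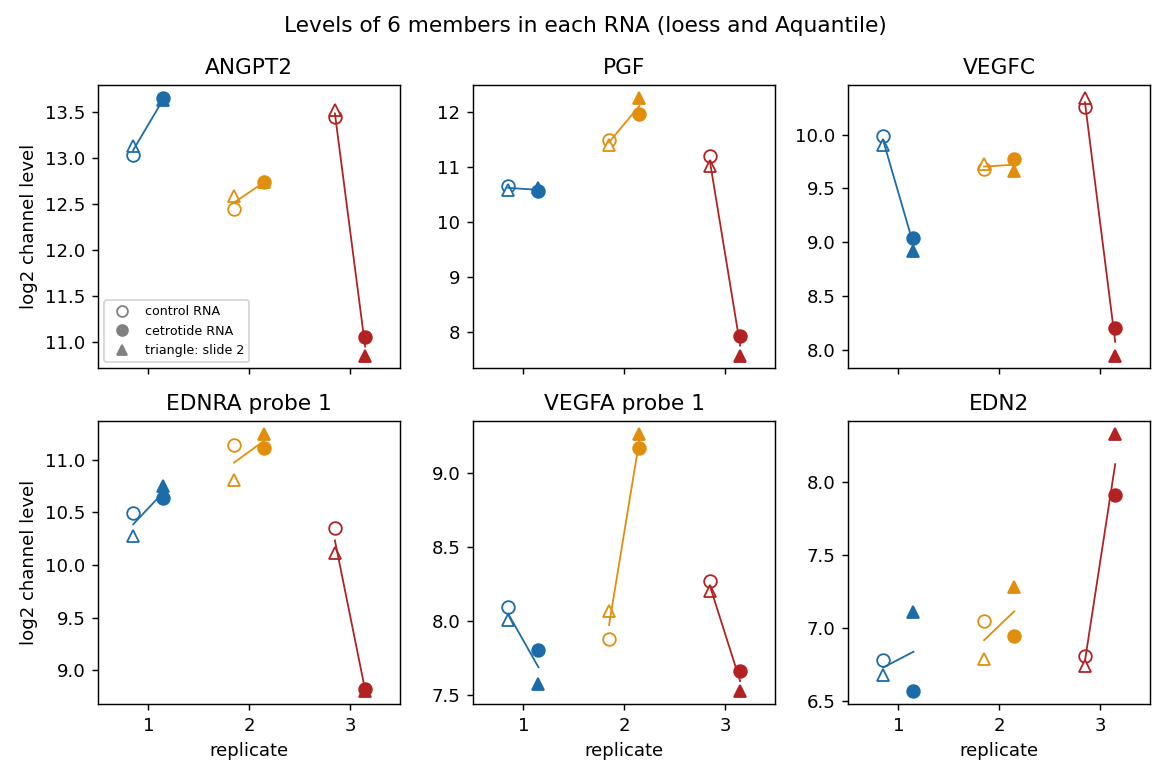
Log2 channel level (vertical axis, after loess and Aquantile) of ANGPT2, PGF, VEGFC, EDNRA, VEGFA and EDN2 in control RNA (open) and cetrotide RNA (filled) of each replicate, with circles for slide 1, triangles for slide 2 and lines joining replicate means. In replicate 3 the cetrotide RNA is low for ANGPT2 (10.95), PGF (7.75), VEGFC (8.07) and EDNRA (8.81) and high for EDN2 (8.12).

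The endothelin ligands were close to background. EDN1, the widespread endothelial form, was above the limit on 5 arrays for cetrotide RNA and on 1 for control RNA. Its log2 ratios were 0.15, 0.47 and 0.35 on slide 1 and 0.17, 0.02 and 0.29 on slide 2, above 0 on all 6 arrays, as for 7.67% of kept probes, and no member was below 0 on all 6 arrays (7.44% of kept probes). The mean of 0.24 ± 0.08 (SD, n = 3), a 1.18-fold difference, had an unadjusted p of 0.0333 and an adjusted p of 0.303 with limma. Its log2 channel levels, at 6.94, 6.84 and 7.10 in cetrotide RNA and 6.78, 6.60 and 6.78 in control RNA, differed by less than 0.5 in every replicate. EDN1 was kept only through cetrotide RNA, the group where it was higher, so these values are given as a description and not as support for a difference. In the authors' processed ratios EDN1 had -0.33 on slide 2, area 2, and was above 0 on 5 of 6 arrays.

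EDN2, the endothelin of the ovulating follicle in rodents, was higher in cetrotide RNA in replicate 3. Its ratios were -0.22, -0.10 and 1.10 on slide 1 and 0.43, 0.49 and 1.59 on slide 2. Replicates 1 and 2 thus changed sign between the slides, and replicate 3 was 2.54-fold higher. Over the replicates the mean was 0.55 ± 0.69 (SD, n = 3; 95% interval -0.38 to 1.48; adjusted p = 0.539 with limma), and it was 0.15 without replicate 3. EDN2 was above the limit on 5 arrays for cetrotide RNA and 4 for control RNA. Its scanned intensity in the cetrotide RNA of replicate 3 was 300.2 on slide 1 and 493 on slide 2, where the background limits were 173 and 218. The control RNA on the same arrays had 186 and 128, beside limits of 174 and 122.

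EDNRA, the endothelin receptor of smooth muscle and stroma, was measured well on 1 of its 3 probes. On the brightest probe the log2 ratios were 0.14, -0.03 and -1.53 on slide 1 and 0.47, 0.44 and -1.32 on slide 2. It was 2.68-fold lower in cetrotide RNA in replicate 3 and 1.23-fold and 1.16-fold higher in replicates 1 and 2. The mean of -0.30 ± 0.97 (SD, n = 3; 95% interval -1.60 to 0.99; adjusted p = 0.816 with limma) became 0.26 without replicate 3. Levels were 10.69, 11.18 and 8.81 in cetrotide RNA and 10.39, 10.97 and 10.23 in control RNA, so that only the cetrotide RNA of replicate 3 fell outside the control range by more than that range. The next probe, at a mean log2 intensity of 6.83 against 10.40, had -0.01, 0.07 and -0.27 in the 3 replicates and was 1.21-fold lower in replicate 3.

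Over all kept member probes, the cetrotide RNA of replicate 3 had the lowest level of the 6 RNAs for 8 of 11 probes, where this held for 24.6% of all kept probes. The exceptions were VEGFB, EDN1 and EDN2, and for EDN1 and EDN2 that RNA had the highest level, as for 19.1% of all kept probes. For 3 of the 8 the gap to the next RNA was small: 0.0050 and 0.094 for the VEGFA probes and 0.088 for the dimmer EDNRA probe. For ANGPT1 it was 0.34, and for VEGFC, EDNRA, ANGPT2 and PGF it ran from 0.90 to 2.83. The cetrotide RNA of replicate 2 was the highest for 5 of 11 probes, those for VEGFA, VEGFB, PGF and the brightest EDNRA probe, where this held for 11.9% of all kept probes. Among all kept probes the value of PGF in replicate 3 was above only 0.0283% of them, that of ANGPT2 above 0.176%, that of VEGFC above 0.334% and that of EDNRA above 2.01%. These 4 values kept their sign and stayed beyond -1.3 when the ratios were made in 6 other ways: over all 7 ways PGF ran from -3.66 to -3.04, ANGPT2 from -2.89 to -2.32, VEGFC from -2.53 to -1.89 and EDNRA from -1.74 to -1.31. EDN2 ran from 1.03 to 1.84.

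Markers of several cell types moved in the same replicates. Of 15 granulosa markers 14 were kept, 12 of them above the limit for both RNAs on all 6 arrays, and FOXL2 was the one not kept. Over the whole array 12389 of 15216 named genes were kept, so being kept does not by itself identify the cells. The 14 kept granulosa markers had a median log2 ratio of -0.33, 0.12 and -1.32 in replicates 1, 2 and 3. In replicate 3 12 of the 14 were below 0, from -2.73 for the gap junction gene GJA1 to 1.04 for FDX1. FSHR, the FSH receptor, had -2.43 there and follistatin FST -2.58. The values of ANGPT2, PGF and VEGFC in replicate 3 were below the granulosa median, and PGF was below every kept granulosa marker. Summed over the list, the linear channel level of granulosa markers ran from 53320 to 176494 in cetrotide RNA and from 138090 to 181497 in control RNA. In bulk RNA, fewer cells of a type and less RNA per cell cannot be told apart.

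Epithelial markers went the other way, with medians of 0.87, 1.46 and 3.30 over the 7 kept of 9, and all 7 were above 0 in replicate 3. There they ran from 0.45 for ELF3 to 5.02 for EPCAM, and ELF3 had -0.05 and -0.09 in replicates 1 and 2. The keratin KRT8 had the highest mean log2 channel level of the list, 14.41 in cetrotide RNA and 11.35 in control RNA. Their summed level ran from 13172 to 169311 in cetrotide RNA and from 1544 to 18352 in control RNA. CDH1 and CLDN3 were not kept. The 15 kept of 20 endothelial markers had medians of 0.89, -0.05 and 0.66 and summed levels from 2271 to 9094 in cetrotide RNA and from 2180 to 2673 in control RNA. By mean, 12 of these 15 were above 0 and 3 below, from -0.05 for CDH5 to 2.33 for ROBO4. ROBO4 had 4.31, -0.26 and 2.94 in replicates 1, 2 and 3. VWF had a mean of 0.64 and the junction gene CLDN5 one of 0.71, and TIE1 and PECAM1 were not kept. The 9 kept of 10 pericyte and smooth muscle markers, cells that carry EDNRA, had medians of 0.14, 0.17 and -0.03, and in replicate 3 they ran from -2.80 for MYH11 and -2.32 for MCAM to 0.74 for CNN1, with 4 of 9 above 0. Their summed level ran from 8004 to 15658 in cetrotide RNA and from 7861 to 17862 in control RNA. Theca markers (10 of 11 kept) had medians of 1.27, 0.01 and 0.14, with summed levels from 20083 to 80464 and from 9723 to 19437 in the same order. By mean, 7 of the 10 were above 0 and 3 below. The means were uneven, at 4.58 for the collagen COL3A1 and 4.37 for the collagen COL1A2. COL1A2 and CYP17A1 were above the limit on 3 arrays for control RNA and were kept only through cetrotide RNA. Their values are therefore a description and not support for a difference. CYP17A1 had 0.03, INSL3 0.24, GLI1 -0.02 and PTCH1 -1.01. Leukocyte markers (12 of 15) had medians of 0.49, -0.05 and 0.58, with 4308 to 6229 and 1979 to 5022, and CSF1R was not above the limit on any array. The 4 red blood cell markers had 0.11, 0.01 and -0.26, with 964 to 1691 and 775 to 2739. The part of these cell types in the member values was not tested.

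**Figure D3:**
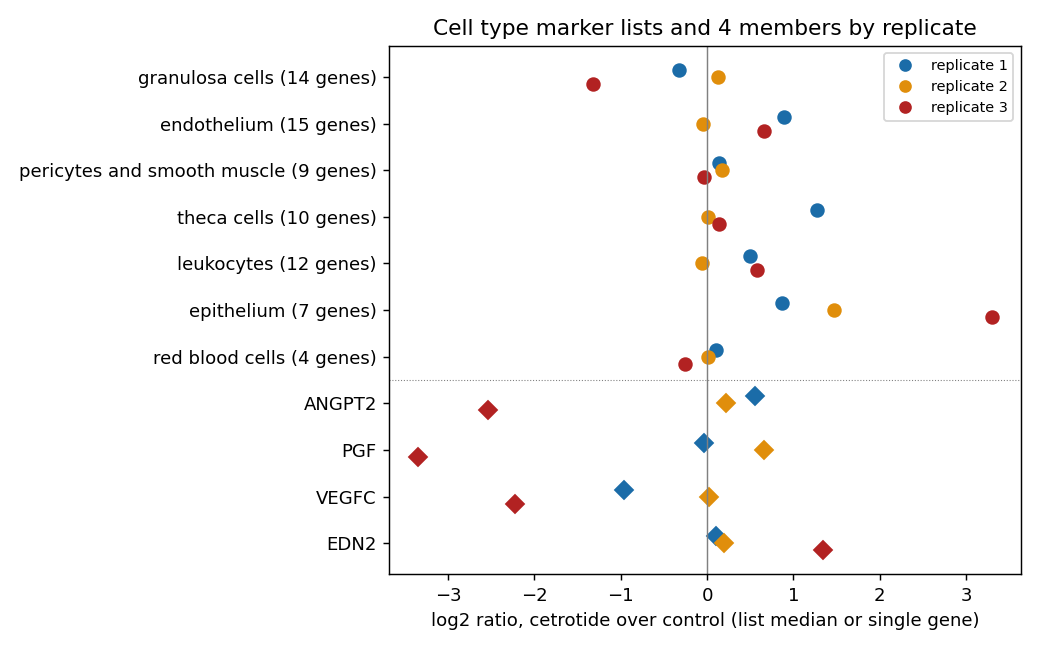
Median log2 ratio of cetrotide over control (horizontal axis) of each kept cell type marker list, and the ratio of ANGPT2, PGF, VEGFC and EDN2, with 1 point per replicate. In replicate 3 the granulosa median (-1.32) lies on the same side as ANGPT2, PGF and VEGFC, and the epithelial median (3.30) on that of EDN2. The endothelial (0.66), leukocyte (0.58) and theca (0.14) medians also lie above 0 there. Those of pericytes and smooth muscle (-0.03) and of red blood cells (-0.26) lie below.

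Of 46 other genes listed for these pathways, 43 were on the array by symbol and 33 were kept. Their median log2 ratio was 0.09, with 19 above 0 and 14 below, beside -0.01 over all kept probes. Limma called 0 of 33 at an adjusted p under 0.05. At an unadjusted p under 0.05, 3 of 33 lay above 0 and none below, against the background of 7.84% and 6.58%. These 3 were the phospholipase PLCB3 (0.54 ± 0.03, SD, n = 3), the endothelial nitric oxide synthase NOS3 (0.66 ± 0.44) and the thrombospondin receptor CD36 (0.40 ± 0.02), with adjusted p of 0.185, 0.320 and 0.198 with limma. PLCB3 had 0.55 on slide 1 and 0.53 on slide 2, but its other probe had -0.07. CD36 had -0.21 on slide 1 and 1.00 on slide 2, so its small SD hides a difference between the slides, and its other probes had -0.34 and -0.22.

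The receptors of the VEGF ligands were uneven. KDR, the main signalling receptor of VEGFA, had log2 ratios of 1.65, 0.02 and 2.29 in replicates 1, 2 and 3, a mean of 1.32 ± 1.17 (SD, n = 3; adjusted p = 0.406 with limma). Its channel levels in cetrotide RNA were 10.61, 7.81 and 10.98, above the control levels of 8.96, 7.79 and 8.68 in replicates 1 and 3. NRP1, a coreceptor of VEGF and semaphorins, showed the opposite signs in those replicates on its brightest probe, -2.01 and -2.25. That probe had 0.27 in replicate 2 and a mean of -1.33 ± 1.39 (adjusted p = 0.467 with limma). For NRP1 the control RNA differed most, with levels of 14.84, 12.98 and 14.97 against 12.83, 13.25 and 12.72 in cetrotide RNA. Its other probes had means of -0.50 and 0.15, with -0.07 and 0.58 in replicate 1 and -1.67 and -0.52 in replicate 3. FLT4, the receptor of VEGFC, had a mean of -0.0040 ± 0.094 and the coreceptor NRP2 one of -0.07 ± 0.05. Both were dim, at mean log2 intensities of 7.21 and 6.88, which limits what their small ratios can show. NRP2 was above the limit on 4 arrays for cetrotide RNA and 5 for control RNA. FLT1, the receptor of PGF and VEGFB, was above the limit on 0 arrays for either RNA and was not measured.

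TEK, the receptor of the angiopoietins, had 0.99, -0.16 and 0.97 in the 3 replicates, and its phosphatase PTPRB had 1.68, -0.01 and 0.93. Neither passed (adjusted p of 0.490 and 0.443 with limma), and PTPRB was above the limit for control RNA on 1 array. The partner receptor TIE1 was above it on 1 array for cetrotide RNA and 2 for control RNA. KDR and TEK are themselves on the endothelial list, whose replicate medians are given above. Of the other ligands, ANGPT4 had -0.12 ± 0.16 and EDN3 -0.04 ± 0.06, and VEGFD was not kept. Both changed sign between the slides, with 0.09 on slide 1 and -0.34 on slide 2 for ANGPT4. EDN3 had -0.40 on slide 1 and 0.32 on slide 2, so its small SD hides a difference between the slides. The endothelin converting enzymes, which cut the active peptide from its precursor, had 0.42 ± 0.79 for ECE1 and 0.23 ± 0.16 for ECE2. Both means came from slide 2, where ECE1 had 0.86 and ECE2 0.47, beside -0.02 and -0.01 on slide 1.

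In oxygen sensing, HIF1A, a transcription factor subunit that induces VEGFA in low oxygen, had -0.66, 0.44 and -1.31 in replicates 1, 2 and 3 on its brightest probe, the same signs as the brighter VEGFA probe. Its mean was -0.51 ± 0.88 (SD, n = 3; adjusted p = 0.660 with limma), and its other probes had means of 0.63 and -0.72. All 3 HIF1A probes were above 0 in replicate 2 and below 0 in replicate 3. In replicate 1 the probes disagreed in sign, as the other probes had 1.14 and -1.03. EPAS1 was above the limit on 1 array for each RNA. The prolyl hydroxylases that mark HIF proteins for decay diverged in replicate 3: EGLN3 had 2.64 and EGLN1 -1.65, values picked here after they were seen. Among inhibitors of vessel growth, thrombospondin THBS1 had 2.84, 0.17 and 1.12 (mean 1.38 ± 1.35) and COL18A1, the source of endostatin, 0.75, 0.23 and 0.15 (0.38 ± 0.32). Both were above 0 on all 6 arrays, with adjusted p of 0.442 and 0.422 with limma. This sign held for 5 of the 33 kept pathway genes, the others being GRB2, NOS3 and PLCB3, against 7.67% of kept probes. Among signalling proteins the adaptor SHC1 had 0.43 ± 0.36.

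**Figure D4:**
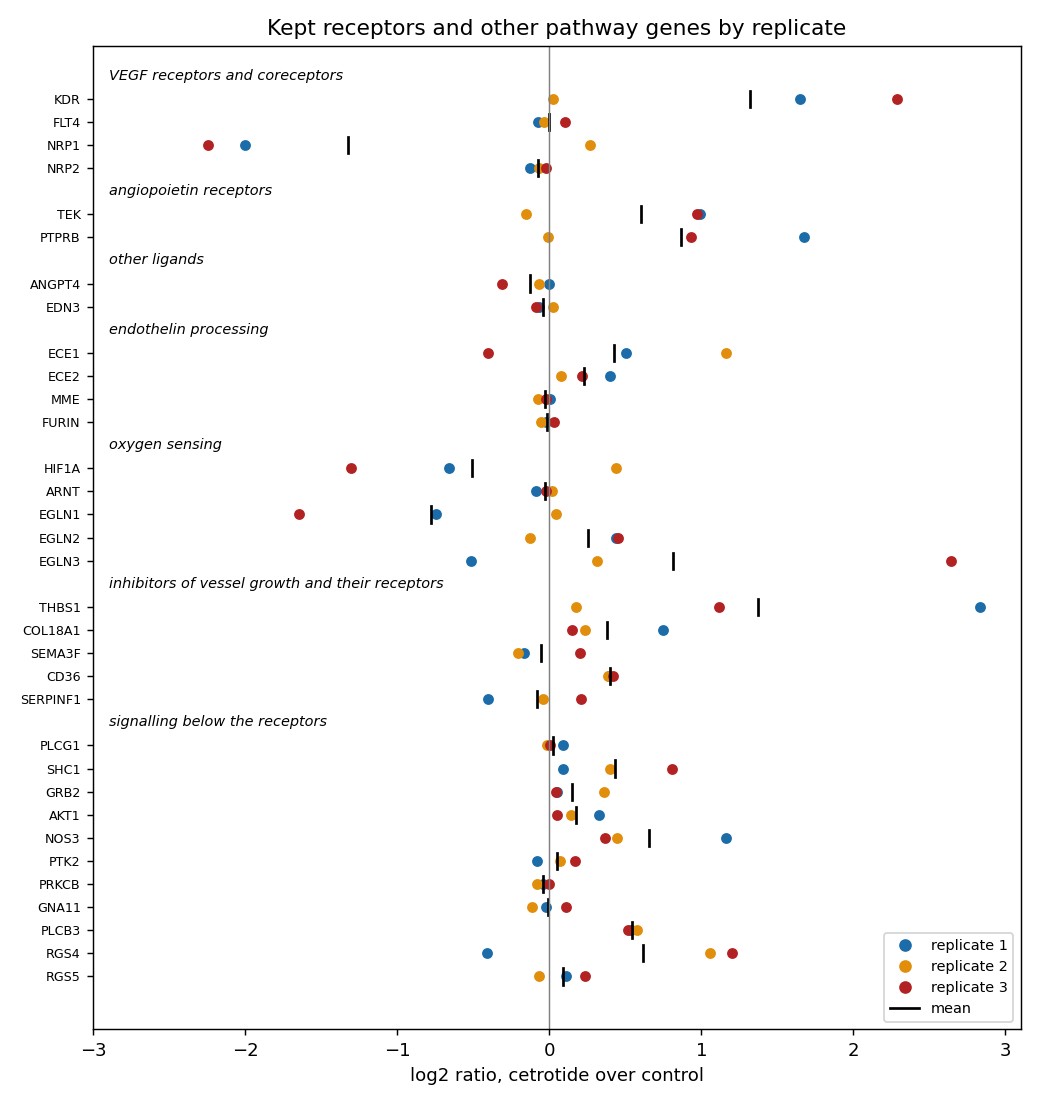
Log2 ratio of cetrotide over control (horizontal axis) of the 33 kept pathway genes that are not members, by group, with 1 point per replicate and a black bar for the mean. KDR and TEK lie to the right in replicates 1 and 3, the brightest NRP1 probe to the left, and replicate 2 lies near 0 for these genes.

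Genes with the most similar pattern were sought for PGF, ANGPT2 and VEGFC, whose ratios had the largest SD over the 6 arrays (1.92, 1.52 and 1.01), among 12388 other named genes by the root mean square difference of the 6 log2 ratios. For ANGPT2 the nearest was HSD3B1, a steroid dehydrogenase, at a difference of 0.14, with 0.49, 0.07 and -2.45 in the 3 replicates, followed by MYL6B, TSPAN5, NDP and TPM2 at 0.27 to 0.32. For PGF the nearest was the lysyl hydroxylase PLOD2 at 0.27, with -0.16, 0.58 and -3.03, followed by LOC616199, UBE2C, MYL6B and TSPAN5 at 0.29 to 0.53. MYL6B and TSPAN5 were thus near both ANGPT2 and PGF. For VEGFC it was CKAP2, a cytoskeletal protein of dividing cells, at 0.13, with -0.91, -0.04 and -2.03, followed by GUCA1A, PKIA, PGK1 and RBM46 at 0.16 to 0.21. The 6 arrays stand for 3 replicates, and replicate 3 held the lowest value of each gene named here.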

How the data were processed

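Members and gene lists were chosen with earlier results of these data known. Per the labels' protocols, small RNA samples were amplified over T7 rounds and labelled chemically with Cy3 or Cy5. The deposited scanner tables hold spot intensities and local backgrounds at both wavelengths, not corrected per the file headers. The authors also deposited log2 ratios, which ran cetrotide over control on every array (correlation with the ratios used here 0.844 to 0.943) with column medians of -0.00191, -0.000108, 0.000134, 0.00229, 0.00214 and 0.00748. Their log base is taken from slopes of 0.828 to 0.930 on scanner log2 ratios, and no source used here states their centring or normalization.

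Mean intensities were corrected with normexp (offset 50) and normalized by loess within arrays, control spots at weight 0, with limma 3.58.1 in R 4.3.3. Between 53.5% and 82.5% of probes per array and RNA exceeded the background limit, and 0 gene probes were near saturation, so dim signal limits the precision. The offset shrinks the ratios of faint probes. Limma (lmFit, eBayes) tested 3 averages against 0, 1 test per kept probe (31769), with Benjamini-Hochberg adjustment. A list gene was represented by its brightest kept probe. Same-area arrays correlated at 0.440 to 0.760 across kept probes, and arrays of different area on opposite slides at -0.035 to 0.305. Arrays on the same slide were not compared. The labels do not say that replicates are separate cows, so the p-values reflect only how these samples vary, possibly for technical reasons. All 10 members were to be named, and of the pathway list the receptors, other ligands, ECE1, ECE2, HIF1A, EPAS1 and up to 3 genes by p of the remaining groups. Symbols of 1524 probes were updated through the RefSeq gene table of ARS-UCD2.0. The fit was tested on simulated data. Alternatives covered background, normalization, filter, probes per gene, replicates and slides.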

Additional observations from a re-analysis of the deposited data

How the results depend on the processing

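Over 16 alternatives, 136 of 142 member gene values kept their direction and 0 passed the adjusted threshold. Changes of the filter or the probes per gene, and fits of the 6 arrays as a replicate block or as separate samples, left the ratios unchanged. In those alternatives the direction was fixed in advance, and only the p-values could move. EDN1 and EDN2 gave no value under the strict filter. VEGFA had -0.160 with median pixel intensities and -0.105 with the authors' processed ratios. Leaving out each replicate in turn, VEGFA ran from -0.50 (without replicate 2) to 0.44, PGF from -1.69 to 0.31, ANGPT2 from -1.16 to 0.39 and EDNRA from -0.61 to 0.26. For PGF, ANGPT2 and EDNRA the positive value came without replicate 3, which also took VEGFC from -1.06 to -0.47; the cause was not tested. Fitting each array with a term for dye, and area as a random replicate block, 739 probes passed (440 higher, 299 lower) but 0 members, with the lowest member p for VEGFC (unadjusted 0.0307, adjusted 0.201 with limma). As separate samples the 6 arrays gave 2338 probes and 2 pathway genes, NOS3 and PLCB3, since arrays of a replicate then count separately. Slide 2 alone gave 972 probes and 1 pathway gene, CD36, while slide 1 alone gave 0 of both. On a single slide cetrotide RNA always carried the same dye, so dye and cetrotide cannot be told apart there. The cause was not tested. EDN1, at an unadjusted p under 0.05 in the test of all replicates, was above it without any 1 replicate (0.0979 to 0.124), and with all replicates in the replicate block (0.195), with median pixel intensities (0.227), with the authors' ratios (0.216) and on slide 2 alone (0.159). Control signal near background limits what can be said of EDN1, EDN2, FLT1 and EDNRB. Dim signal in both RNAs likewise limits what can be said of FLT4 and NRP2.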
